A study of Mus musculus with 6 samples.

Results

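The genes that drive and restrain the cell division cycle were examined in 6 libraries of whole mouse kidney, 3 from LIGHT+/+ (wild type) and 3 from LIGHT-/- (LIGHT knockout) adult males on a C57BL/6 J background. LIGHT, the product of Tnfsf14, is a cytokine related to tumour necrosis factor. Every animal, wild type ones included, had both kidneys made ischemic for 32 min and reperfused for 24 h, so the genotypes were compared in injured kidneys only. The sources used here do not say how the LIGHT allele was made. Members were taken by symbol: the lettered cyclins (Ccn), the numbered cyclin-dependent kinases (Cdk), the Cdkn genes except 1 left out by the rule, the Mcm and E2f genes, and Mki67, Top2a, Pcna, Cdc20, Plk1, Aurka and Aurkb. The deposited table held 68 of them among 13026 genes, in FPKM (fragments scaled to transcript length and to the total of the library), and 66 were tested among the 12836 genes that averaged at least 0.5 FPKM. The members outside the test were Ccnb1 and Ccnf.

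Cyclins are the regulatory subunits of cyclin-dependent kinases. D-type cyclins with Cdk4 or Cdk6 start the phosphorylation of the retinoblastoma protein, which frees E2F factors to switch on genes of DNA synthesis, cyclin E and A with Cdk2 carry the cell into and through S phase, and cyclin B with Cdk1 drives mitosis. The Mcm2 to Mcm7 proteins form the helicase that is loaded on DNA to license replication. After ischemic injury, surviving tubule cells of the kidney are known to re-enter the cycle, and the p53 target Cdkn1a (p21) is known to be induced. Several genes with cyclin or Cdk names, such as Ccnt1 and Cdk9, act in transcription and not in division.

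Across the libraries, the markers of proximal tubule fixed for the tissue were abundant, with Slc34a1 between 289.5 and 875 FPKM, and no T cell or B cell marker was among the genes tested. The 3 neutrophil markers tested summed to 57.6, 68.7 and 83.4 FPKM in wild type and to 40.5, 58.2 and 18.9 in the knockout. The FPKM of a library totalled 299667 to 318493, and the read depth behind them is unknown. Knockout library 3 stood apart: across genes, log2(FPKM + 1) values correlated with those of the other 5 at a Pearson r of 0.934 to 0.956, while those 5 correlated with each other at 0.976 to 0.989. In wild type the 4 injured tubule markers (Havcr1, Lcn2, Krt20, Vcam1) summed to 1109, 1103 and 1117 FPKM. In the knockout they summed to 831, 677 and 183.8. The 5 proximal tubule markers summed to 481.5, 494 and 424 FPKM in wild type and to 578, 637 and 1204 in the knockout. Singly, Havcr1 (lower) and all 5 proximal tubule markers (higher) did not overlap between the groups, beside 16.6% of all genes. The 5 markers of distal tubule and collecting duct summed to 558 FPKM in knockout library 3, against 155.5 to 260.4 elsewhere. Of these, 4 were highest there, with Aqp2 alone at 324.7 FPKM against 38.5 to 89.5, and Atp6v1g3 was within its range. In whole tissue, fewer cells of a type and less RNA per cell cannot be told apart. For the main genes and groups, values that rest on knockout library 3 are given with and without it.

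No cell cycle gene passed the test. Of the 66 tested, 0 had a limma adjusted p under 0.05, against 0.117% of all genes (0.0234% higher and 0.0935% lower in the knockout). At an unadjusted p under 0.05 there were 2, Cdk2 and Cdc20, both lower. That is a share of 3.03%, against 8.08% of all genes (4.34% higher and 3.74% lower). The smallest adjusted p over the members was 0.592. The groups did not overlap in 4 members, which is 6.06% against 16.6% of all genes (7.76% higher and 8.8% lower), and all 4 (Cdk2, Cdc20, E2f3 and E2f4) were lower in the knockout. By sign alone, 45 members were lower and 21 higher, beside 52.1% lower and 47.9% higher of all genes. Their median log2 fold change was -0.09, beside -0.01 over all genes tested. This lean rested on wild type library 3: without it 33 were lower and 33 higher, while without knockout library 3 the split was 46 to 20 and without wild type library 1 it was 54 to 12. With the libraries scaled to equal sums it was 37 to 29. All genes moved up in these fits too. Their median was 0.01 without wild type library 3. With equal sums it was 0.03, beside -0.07 over the members. Most differences were small, with 50 of the 66 members under 0.25 in absolute log2 fold change, a share of 75.8% beside 75.9% of all genes.

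**Figure D1:**
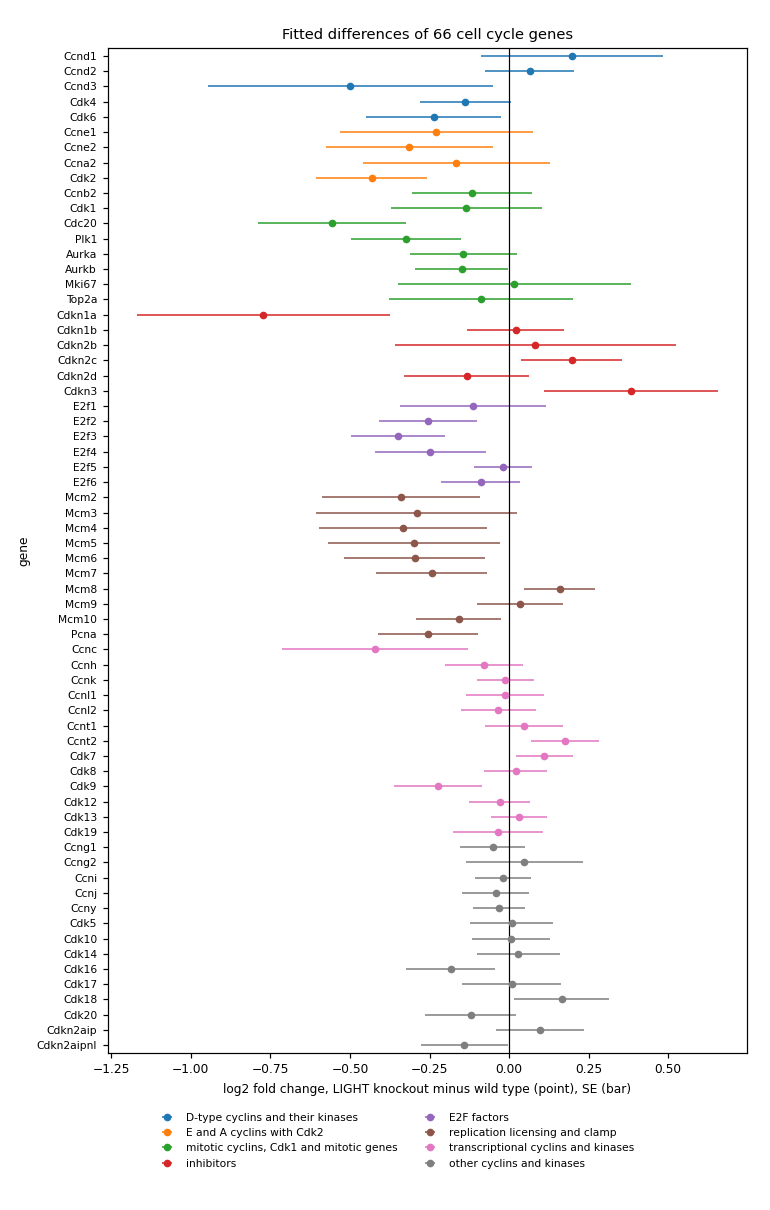
Log2 fold change of LIGHT knockout against wild type on the log2(FPKM + 1) scale for the 66 genes tested, with the SE of the fit as bars and colours for the roles. Points lie between -0.77 (Cdkn1a) and 0.38 (Cdkn3), and no gene passed the test.

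The widest pattern among the members ran across single libraries and not between genotypes. Wild type library 3 held the highest value of 38 members (57.6%, against 26.7% of all genes), among them 9 of the 10 licensing and clamp genes, 5 of the 6 E2F genes, all 4 of the cyclin E and A group and 6 of the 8 mitotic genes. Knockout library 3 held the lowest value of 25 members (37.9%, against 30.3% of all genes), among them 7 of the 10 licensing and clamp genes, and the highest value of 12 (18.2%, against 29.8% of all genes), among them 4 of the 6 inhibitors. The median of the licensing and clamp genes, relative to each gene's mean over the libraries, was 0.43 in wild type library 3 and -0.38 in knockout library 3 on the log2(FPKM + 1) scale, and between -0.11 and 0.06 in the other 4 libraries.

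**Figure D2:**
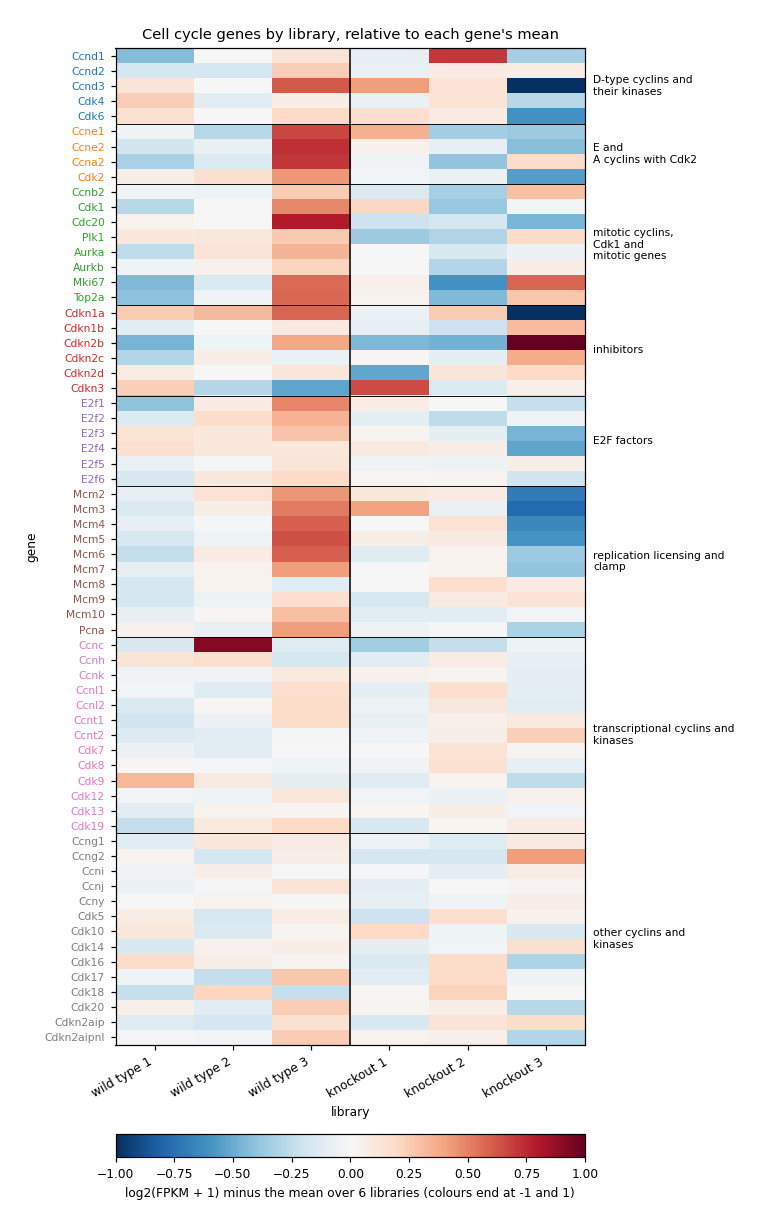
Each row is a gene and each column a library, and the colour gives log2(FPKM + 1) minus the gene's mean over the 6 libraries, with roles named at the right. Wild type library 3 is red across the cyclin E and A, mitotic, E2F and licensing rows, and knockout library 3 is blue in most licensing rows, while the rows of transcriptional genes are pale apart from Ccnc in wild type library 2.

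D-type cyclins and their kinases act at the entry to the cycle, and Ccnd1 was the most abundant cyclin of division in these kidneys. Ccnd1 stood at 44.9, 61.1 and 66.8 FPKM in wild type and at 57.6, 100.1 and 48.2 in the knockout. The groups overlapped, with knockout library 2 alone far above the rest, and the log2 fold change was 0.20 ± 0.29 (SE, limma adjusted p = 0.830). Without that library it was -0.11. Ccnd1 made up between 81.0 and 89.6% of the summed FPKM of the 3 D-type cyclins. Ccnd2 lay between 4.09 and 5.80 FPKM in all libraries.

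Ccnd3, the D-type cyclin best known from lymphoid cells, stood at 6.46, 5.81 and 9.43 FPKM in wild type and at 8.12, 6.50 and 1.75 in the knockout. Only knockout library 3 was below the wild type range. The log2 fold change was -0.50 ± 0.45 (SE, limma adjusted p = 0.723), and 0.03 without that library. Ccnd3 lies on chromosome 17 at 47505051 to 47599691 (mm10), 9.6 Mb from Tnfsf14, and overlaps Bysl on the opposite strand. Bysl in knockout library 3 was also at its lowest (7.45 FPKM, against 10.7 to 11.1 in the other libraries), as were 30.3% of all genes. A part of the position in these values was not tested. Cdk6, a catalytic partner of the D-type cyclins, showed the same single low library, at 8.45, 7.54 and 8.80 FPKM in wild type and 8.57, 8.03 and 4.59 in the knockout. Its log2 fold change was -0.24 ± 0.21 (SE, limma adjusted p = 0.722), and 0.01 without knockout library 3. Cdk4, the other partner, averaged 21.7 ± 2.73 and 19.7 ± 3.00 FPKM (SD, n = 3 each; limma adjusted p = 0.756).

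Cdk2, the kinase of cyclins E and A, had the smallest unadjusted p of the members. It stood at 8.97, 9.71 and 12.0 FPKM in wild type and at 8.43, 8.14 and 5.54 in the knockout. Every knockout library lay below every wild type library, though by only a small margin between knockout library 1 and wild type library 1. The log2 fold change was -0.43 ± 0.18 (SE), with an unadjusted p of 0.0451 and a limma adjusted p of 0.592, and it was -0.26 without knockout library 3.

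The E cyclins, which bind Cdk2 at the start of S phase, followed wild type library 3. Ccne2 stood at 2.27, 2.53 and 5.18 FPKM in wild type and at 2.83, 2.52 and 1.77 in the knockout (limma adjusted p = 0.710). Ccne1 stood at 1.20, 0.865 and 2.61 FPKM and at 1.91, 0.790 and 0.763 (limma adjusted p = 0.814). In both, the groups overlapped and the mean of wild type was set by 1 library: without it the log2 fold change went from -0.23 to 0.05 in Ccne1 and from -0.31 to -0.03 in Ccne2. Ccna2, which serves S phase and entry to mitosis, stood at 0.917, 1.18 and 2.91 FPKM and at 1.33, 0.820 and 1.73. The median of these 4 genes was -0.27, and 0.01 without wild type library 3.

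E2F factors were all lower by sign, with a median of -0.18 over the 6 tested, beside -0.01 over all genes. The median was -0.05 without knockout library 3 and -0.08 without wild type library 3. E2f3, an activator of S phase genes, stood at 5.16, 5.06 and 5.83 FPKM in wild type and at 4.74, 4.29 and 3.06 in the knockout. The groups did not overlap, and the log2 fold change was -0.35 ± 0.15 (SE, limma adjusted p = 0.592) and -0.20 without knockout library 3. E2f4, a repressor with the RB-like proteins in resting cells and the most abundant E2F here, stood at 26.0, 24.9 and 25.1 FPKM in wild type and at 24.7, 24.3 and 15.8 in the knockout. Its groups also did not overlap, but knockout libraries 1 and 2 lay just under the lowest wild type value, and the distance came from knockout library 3. The log2 fold change was -0.25 ± 0.17 (SE, limma adjusted p = 0.669), and -0.05 without that library.

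The other activators overlapped between the genotypes. E2f1 stood at 2.19, 3.47 and 4.93 FPKM in wild type and at 3.43, 3.20 and 2.59 in the knockout (limma adjusted p = 0.877), and its log2 fold change was -0.11, but 0.10 without wild type library 3. E2f2 averaged 1.72 ± 0.452 and 1.27 ± 0.178 FPKM (SD, n = 3 each; limma adjusted p = 0.635). The least different were E2f5, at 17.1 ± 1.24 and 16.9 ± 0.756 FPKM, and E2f6, a repressor without RB binding, at 12.6 ± 1.68 and 11.7 ± 1.03.

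The subunits of the replicative helicase varied together from library to library. Summed over Mcm2 to Mcm7, the level was 53.5, 61.3 and 89.9 FPKM in wild type and 61.9, 62.3 and 38.7 in the knockout. Wild type library 3 was the highest and knockout library 3 the lowest, and among the other 4 both knockout libraries lay slightly above both wild type libraries. Mcm2 stood at 6.45, 7.73 and 9.69 FPKM in wild type and at 7.49, 7.33 and 3.85 in the knockout, with a log2 fold change of -0.34 ± 0.25 (SE, limma adjusted p = 0.680), which was -0.07 without knockout library 3 and -0.20 without wild type library 3. Mcm5 stood at 9.49, 10.4 and 17.3 FPKM and at 11.1, 11.5 and 6.73. Mcm7, with a limma adjusted p of 0.677, averaged 9.80 ± 2.02 and 8.10 ± 1.41 FPKM (SD, n = 3 each), and 26.8% of its 31-base words also occur in transcripts of other genes. The log2 fold changes of the 6 subunits lay between -0.34 and -0.24.

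Pcna, the sliding clamp of DNA polymerase, stood at 36.6, 33.6 and 47.8 FPKM in wild type and at 34.2, 35.1 and 28.2 in the knockout (limma adjusted p = 0.638). Of its 31-base words 23.3% are shared, mostly with Pcna-ps2, which was measured at 2.08 to 3.68 FPKM. Mcm8, which works in DNA repair and not in licensing, differed from the helicase subunits in sign and in its highest library. It stood at 1.10, 1.42 and 1.18 FPKM in wild type and at 1.35, 1.65 and 1.49 in the knockout (log2 fold change 0.16, limma adjusted p = 0.669). Mcm9, its partner in repair, averaged 2.43 ± 0.415 and 2.51 ± 0.360 FPKM. The median over the 10 licensing and clamp genes was -0.27, and leaving out either wild type library 3 or knockout library 3 brought it to -0.08.

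Promoters of these genes are shown because E2F sites are the textbook link between the E2F factors and the S phase genes that varied together. The search took the words TTTGGCGC, TTTCCCGC, TTTCGCGC and TTTGCCGC on both strands in the RefSeq promoters (GRCm38.p6, 300 bases across each start), of which 55 of the 68 members had at least 1. Among 9 licensing and clamp genes with a promoter, 5 held such a word (Mcm3, Mcm5, Mcm6, Mcm7 and Mcm8), as did Cdk2, Cdk1, E2f2 and E2f3 and no other member searched. Of all 32851 promoters 2.26% held one, and of 9773 tested genes with a promoter 4.45% held one in any of theirs. Capitals mark the words found, and adjacent matches share bases in Mcm5 (chr8:75109259-75109558, plus strand) and at the farther site of Mcm6 (chr1:128359656-128359955, minus strand). Cdk2 (chr10:128705002-128705301, minus strand) has a single match.
Mcm5: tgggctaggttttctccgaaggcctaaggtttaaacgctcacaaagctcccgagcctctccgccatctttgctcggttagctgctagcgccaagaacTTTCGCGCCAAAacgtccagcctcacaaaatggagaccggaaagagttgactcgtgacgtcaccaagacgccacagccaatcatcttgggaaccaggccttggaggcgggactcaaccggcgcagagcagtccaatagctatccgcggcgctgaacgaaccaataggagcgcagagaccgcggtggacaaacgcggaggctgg
Mcm6: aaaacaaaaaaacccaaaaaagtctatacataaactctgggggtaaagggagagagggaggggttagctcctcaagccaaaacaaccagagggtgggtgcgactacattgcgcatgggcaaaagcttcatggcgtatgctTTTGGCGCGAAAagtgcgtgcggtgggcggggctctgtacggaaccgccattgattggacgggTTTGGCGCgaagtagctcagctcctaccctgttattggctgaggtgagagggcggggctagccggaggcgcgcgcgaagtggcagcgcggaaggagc
Cdk2: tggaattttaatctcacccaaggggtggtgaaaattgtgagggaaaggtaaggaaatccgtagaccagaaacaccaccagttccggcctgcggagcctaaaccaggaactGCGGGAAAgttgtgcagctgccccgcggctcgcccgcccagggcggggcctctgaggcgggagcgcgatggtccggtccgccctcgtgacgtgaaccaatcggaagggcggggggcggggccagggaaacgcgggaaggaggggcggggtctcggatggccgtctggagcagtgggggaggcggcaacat
Mcm8 holds such a word too, although its values did not follow those of Mcm2 to Mcm7, and Mcm2 and Pcna hold none of these words in this window. A match is a string of letters, not a shown binding site.

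Mitotic genes were low, with 8 tested and wild type means between 0.656 (Aurkb) and 2.18 FPKM (Cdc20). Mki67, the antigen used to count dividing cells, stood at 0.620, 0.987 and 2.25 FPKM in wild type and at 1.27, 0.443 and 2.30 in the knockout. The highest library of each genotype was number 3, the genotypes overlapped fully, and the log2 fold change was 0.02 ± 0.37 (SE, limma adjusted p = 0.991), turning to -0.27 without knockout library 3. Top2a, which untangles replicated DNA, stood at 0.878, 1.44 and 2.71 FPKM and at 1.56, 0.839 and 2.01 (limma adjusted p = 0.931). Cdk1, the mitotic kinase, stood at 0.884, 1.29 and 2.20 FPKM and at 1.64, 0.756 and 1.24 (limma adjusted p = 0.858). The log2 fold changes of Top2a and Cdk1 were -0.09 and -0.13, and turned to 0.18 and 0.07 without wild type library 3 and to 0.11 and 0.02 without knockout library 2. The median of the 8 genes was -0.14, with -0.02 and -0.01 in those fits.

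Cdc20, an activator of the anaphase-promoting complex, was the mitotic gene with the smallest p. It stood at 1.59, 1.55 and 3.40 FPKM in wild type and at 1.20, 1.25 and 0.850 in the knockout. Its groups did not overlap, and the log2 fold change was -0.56 ± 0.23 (SE, unadjusted p = 0.0488, limma adjusted p = 0.592), or -0.30 without wild type library 3. Its gene overlaps Elovl1 on the opposite strand, and 25.5% of its 31-base words occur in transcripts of other genes, so its value is uncertain. The kinases Plk1 and Aurka averaged 0.854 ± 0.117 and 1.07 ± 0.416 FPKM in wild type and 0.502 ± 0.327 and 0.847 ± 0.0990 in the knockout (SD, n = 3 each). Ccnb1, too low to be tested, stood at 0.456, 0.434 and 0.937 FPKM and at 0.317, 0.323 and 0.316, and 27.7% of its words are shared, mostly with the pseudogene Ccnb1-ps.

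**Figure D3:**
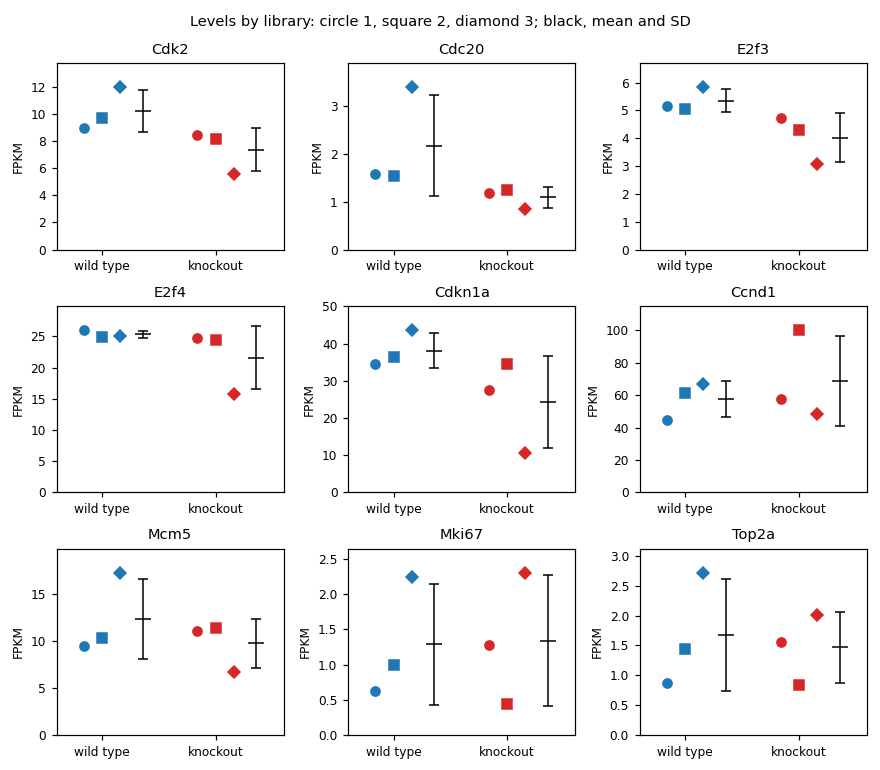
FPKM of 9 genes by library (vertical axis, from 0), wild type in blue and LIGHT knockout in red, with circle, square and diamond for libraries 1, 2 and 3 and the mean with SD in black. Cdk2, Cdc20, E2f3 and E2f4 do not overlap between the groups. The diamond of the knockout is the lowest point for Cdk2, Cdc20, E2f3, E2f4, Cdkn1a and Mcm5. It is the highest knockout point for Mki67 and Top2a.

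Late genes of the cycle share another promoter word, the cell cycle homology region (CHR), through which the DREAM complex of RB-like proteins is known to repress them in resting cells. The words TTTGAA and TTCGAA were searched on both strands. Of 9 mitotic genes with a promoter 8 held one (all but Ccnb1), against 2 of 9 licensing and clamp genes, 0 of 11 transcriptional cyclins and kinases, and 16.1% of the 9773 tested genes (19.2% of all promoters). So did 2 of 4 E2F genes, 2 of 6 inhibitors and 2 of 11 other cyclins and kinases, and 16 of the 55 members in all. CCAAT, the box bound by NF-Y, was in the promoters of all 9 mitotic and all 9 licensing and clamp genes, of 37 of the 55 members and of 42.4% of the tested genes. Cdk1 (chr10:69352863-69353162) holds both an E2F word and 2 CHR words, Top2a (chr11:99024140-99024439) 4 CHR words, Mki67 (chr7:135716330-135716629) 2 and Cdc20 (chr4:118437294-118437593) 1. All 4 lie on the minus strand of GRCm38.p6, and capitals mark those words.
Cdk1: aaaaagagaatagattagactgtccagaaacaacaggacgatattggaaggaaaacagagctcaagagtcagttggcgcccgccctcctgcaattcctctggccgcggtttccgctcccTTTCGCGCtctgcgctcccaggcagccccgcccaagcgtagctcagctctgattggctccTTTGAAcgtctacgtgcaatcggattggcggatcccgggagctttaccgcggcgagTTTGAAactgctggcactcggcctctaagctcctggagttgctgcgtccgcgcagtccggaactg
Top2a: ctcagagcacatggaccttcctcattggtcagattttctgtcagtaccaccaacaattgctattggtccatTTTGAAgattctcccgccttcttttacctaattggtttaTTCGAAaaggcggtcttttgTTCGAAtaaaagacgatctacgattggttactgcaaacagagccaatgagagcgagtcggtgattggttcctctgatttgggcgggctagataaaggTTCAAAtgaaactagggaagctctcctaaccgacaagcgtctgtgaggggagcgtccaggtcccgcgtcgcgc
Mki67: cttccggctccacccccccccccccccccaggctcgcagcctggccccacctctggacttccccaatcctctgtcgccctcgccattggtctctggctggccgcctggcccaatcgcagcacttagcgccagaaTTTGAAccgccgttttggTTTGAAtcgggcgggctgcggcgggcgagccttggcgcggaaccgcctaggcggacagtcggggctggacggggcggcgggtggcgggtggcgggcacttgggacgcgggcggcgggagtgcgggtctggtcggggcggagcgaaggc
Cdc20: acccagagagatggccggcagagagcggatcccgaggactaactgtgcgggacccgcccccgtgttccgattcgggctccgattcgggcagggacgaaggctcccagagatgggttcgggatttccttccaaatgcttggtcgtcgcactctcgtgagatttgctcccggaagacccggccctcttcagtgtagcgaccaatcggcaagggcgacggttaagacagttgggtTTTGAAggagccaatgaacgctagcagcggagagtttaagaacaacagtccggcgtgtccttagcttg
Cdc20 and Mki67 share this word but differed in knockout library 3, where Cdc20 was at its lowest and Mki67 at its highest.

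In knockout library 3 the helicase genes lay below their means over the 6 libraries, and Mki67, Top2a and Ccna2 above theirs. The mitotic genes were not of 1 kind there, since Cdc20 was at its lowest and Cdk1, Aurka, Ccnb1 and Ccnf were below their means. The sum of Mki67, Top2a and Ccna2, chosen after their values were seen, was 2.42, 3.61 and 7.88 FPKM in wild type and 4.17, 2.10 and 6.04 in the knockout. The helicase sum was 11.4 times this in wild type library 3 and 6.40 times in knockout library 3, against 14.9 to 29.6 times in the other 4. Lists of related genes outside the members, of which 33 of 33 and 16 of 25 were tested, are given beside it. In knockout library 3 the median deviation of 33 DNA replication genes was -0.26 and that of 16 mitosis genes 0.10, and in wild type library 3 they were 0.40 and 0.31. The 4 macrophage markers summed to 65.4 FPKM in wild type library 3 and 59.7 in knockout library 3, against 45.9 to 48.8 in the other 4. Of these markers Adgre1, Csf1r and C1qa were highest in the same pair of libraries as Mki67, whereas Cd68 stood at 20.2 FPKM in wild type library 3 but at 11.9 in knockout library 3, within its range of 11.2 to 14.8 in the others. The 4 endothelial markers summed to 63.5 and 65.1 FPKM in those libraries, against 44.3 to 54.7. Only Emcn, at 18.4 and 23.1 FPKM, was above all other libraries in both. Pecam1 and Cdh5 in knockout library 3, and Kdr in wild type library 3, lay within their ranges in the other 4. The 3 stroma markers (Acta2, Col1a1, Pdgfrb) summed to 197.9 FPKM in wild type library 3 and 83.5 in knockout library 3, against 91.4 to 125.5 in the others. All 3 were highest in the former, and 2 were lowest in the latter, while Col1a1 was lowest in knockout library 1. The part of these marker levels in the values of the cell cycle genes was not tested.

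**Figure D4:**
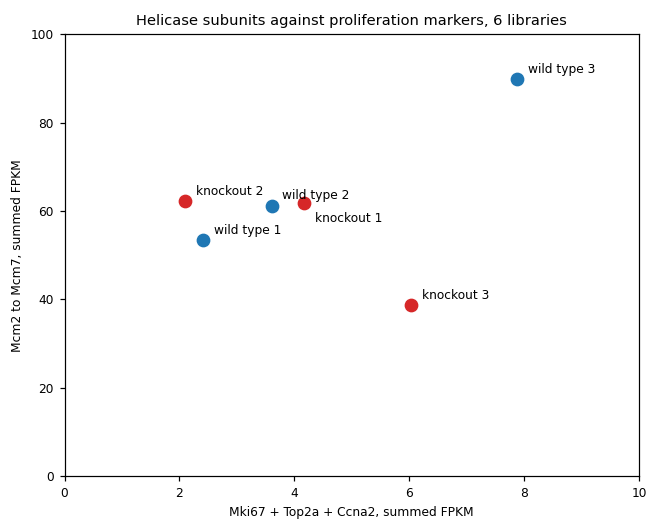
Each point is a library, with the summed FPKM of Mki67, Top2a and Ccna2 on the horizontal axis and that of Mcm2 to Mcm7 on the vertical axis, wild type in blue and LIGHT knockout in red. Wild type library 3 is high on both axes, and knockout library 3 is second on the horizontal axis (6.04) but lowest on the vertical axis (38.7).

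Inhibitors did not move as a group: 4 of 6 were higher and 2 lower by sign, with a median of 0.05. Cdkn1a (p21), which blocks cyclin-Cdk complexes after p53 activation, was the most abundant inhibitor among them. It stood at 34.5, 36.3 and 43.6 FPKM in wild type and at 27.7, 34.6 and 10.6 in the knockout. The highest knockout value lay just inside the wild type range, and knockout library 3, the library of the lowest injury marker sum, was far below all others. The log2 fold change of -0.77 ± 0.40 (SE) was the lowest of the members and did not pass (limma adjusted p = 0.602), and it was -0.29 without knockout library 3. Cdkn1a lies on chromosome 17, 28.1 Mb from Tnfsf14.

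Members of the INK4 family, which block Cdk4 and Cdk6, were high in that library. Cdkn2b stood at 1.39, 2.20 and 3.30 FPKM in wild type and at 1.41, 1.38 and 5.80 in the knockout (limma adjusted p = 0.961). Cdkn2c stood at 3.59, 4.91 and 4.37 FPKM and at 4.68, 4.29 and 6.29 (log2 fold change 0.20, limma adjusted p = 0.705). Knockout library 3 was the highest of all 6 in both, as in Cdkn2d and in Cdkn1b, the p27 inhibitor of resting cells, at 8.25, 8.96 and 9.65 FPKM and 8.45, 7.68 and 11.5. Cdkn2d was otherwise low in knockout library 1, at 3.26 FPKM against 5.14 to 6.02 elsewhere (limma adjusted p = 0.836). The median of the 6 inhibitors was -0.20 without knockout library 3 and 0.21 without knockout library 2. Cdkn3, a phosphatase that acts on Cdk2, was low and variable, between 0.126 and 1.56 FPKM.

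The cyclins and kinases of transcription differed little. Of 13 tested, 5 were higher and 8 lower, with a median of -0.01. Ccnt2, a partner of Cdk9 in transcript elongation, stood at 3.31, 3.38 and 3.70 FPKM in wild type and at 3.63, 3.95 and 4.58 in the knockout (log2 fold change 0.18, limma adjusted p = 0.638). Cdk9 itself had the opposite sign, at 9.06, 7.50 and 6.52 FPKM and 6.36, 7.21 and 5.70 (log2 fold change -0.22, limma adjusted p = 0.640). Ccnc, a subunit of the Mediator kinase module, had a log2 fold change of -0.42 that came from 1 library: it stood at 3.02, 7.47 and 3.13 FPKM in wild type and at 2.54, 2.80 and 3.35 in the knockout (limma adjusted p = 0.669). Without wild type library 2 the log2 fold change was -0.07. Tstd3, which overlaps it on the opposite strand, was at 9.86 FPKM in the same wild type library, within its range of 7.29 to 11.3. Cdk8 and Cdk19, the kinases of that module, averaged 5.65 ± 0.151 and 5.30 ± 0.963 FPKM in wild type and 5.76 ± 0.603 and 5.12 ± 0.502 in the knockout (SD, n = 3 each). The parts of the Cdk-activating kinase, Cdk7 and Ccnh, averaged 5.63 ± 0.279 and 10.2 ± 1.40 FPKM in wild type and 6.16 ± 0.345 and 9.55 ± 0.738 in the knockout.

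Other members included the most abundant of the set. Ccni, an atypical cyclin, lay between 84.8 and 95.6 FPKM, although 21.5% of its words are shared with other genes. Ccng1, a p53 target, stood at 81.1, 93.8 and 92.2 FPKM in wild type and at 84.4, 80.1 and 93.0 in the knockout. Unlike Cdkn1a, another p53 target, it was not low in knockout library 3, and its log2 fold change was -0.05 ± 0.10 (SE, limma adjusted p = 0.876). Ccny, which recruits Cdk14 to the cell membrane, averaged 28.6 ± 0.325 and 28.0 ± 1.56 FPKM (SD, n = 3 each). Cdk16, a kinase with roles in differentiated cells, averaged 25.8 ± 1.58 and 22.8 ± 4.24 FPKM (limma adjusted p = 0.692), and its relative Cdk18 12.1 ± 2.47 and 13.6 ± 1.25 (limma adjusted p = 0.723). Cdkn2aipnl, which carries the Cdkn prefix but is no Cdk inhibitor, averaged 15.6 ± 1.89 and 14.1 ± 1.96 FPKM (limma adjusted p = 0.741). Of the 14 genes in this group 7 were higher and 7 lower, with log2 fold changes between -0.18 and 0.17.

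Other genes of the pathway were read from lists, and 0 of their genes passed the test (limma adjusted p of at least 0.592). In DNA replication, 26 of 33 were lower and 7 higher, with a median of -0.16, beside -0.01 over all genes. Of the 33, 27 were highest in wild type library 3 and 19 lowest in knockout library 3, beside 26.7% and 30.3% of all genes. In the other libraries the list's median deviation lay between -0.12 and 0.02, and was not lower in the knockout. Gins1, a subunit of the active helicase, averaged 4.43 ± 0.657 and 2.86 ± 0.595 FPKM (SD, n = 3 each), and Fen1, which trims Okazaki fragments, averaged 9.84 ± 1.98 and 5.47 ± 2.51. The groups did not overlap in 4 of the 33, Gins1 and Fen1 among them, all lower, beside 8.8% of all genes. Nek2, Cks1b and Cdk2ap1, named below, were also lower without overlap. Such genes were 1 of 16 in mitosis and 3 of 16 among the regulators below, beside the same 8.8%. Among these regulators 1, Skp1a, was higher without overlap, beside 7.76% of all genes. In mitosis, 11 of 16 were lower, with a median of -0.09, among them the kinase Nek2 at 1.68 ± 0.187 and 1.23 ± 0.141 FPKM and Nusap1, a spindle protein, at 1.18 ± 0.0290 and 0.909 ± 0.316. The RB family, E2F partners and DREAM complex had 7 of 11 lower and a median of -0.05. Of these Lin37 averaged 7.17 ± 1.18 and 5.24 ± 0.801 FPKM, and Tfdp2, a dimer partner of E2F, 1.79 ± 0.725 and 1.24 ± 0.495. Among regulators of Cdk activity and cyclin turnover, 10 of 16 were lower with a median of -0.05. Cks1b, a Cdk-binding subunit that helps destroy p27, averaged 11.5 ± 2.89 and 7.30 ± 2.40 FPKM (log2 fold change -0.62, and -0.35 without knockout library 3), and Cdk2ap1, a Cdk2-associated protein, 24.0 ± 4.53 and 17.0 ± 2.46.

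The p53 targets outside the members had 14 of 19 lower and a median of -0.22. Mdm2, which degrades p53, stood at 11.8, 12.6 and 13.4 FPKM in wild type and at 10.2, 11.2 and 9.84 in the knockout (log2 fold change -0.25, limma adjusted p = 0.592). Bax, an effector of apoptosis, stood at 25.6, 22.4 and 22.2 FPKM and at 17.7, 21.7 and 14.6 (log2 fold change -0.37, limma adjusted p = 0.592; log2 fold change -0.24 without knockout library 3). These 2 were named for the smallest p in the list. In both, all knockout libraries lay below all wild type libraries, as in 3 of the 19 listed genes, beside 8.8% of all genes. Their lowest library was knockout library 3, in which the list's median deviation was -0.27, against -0.02 to 0.15 in the others.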

How the data were processed

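Whole-kidney RNA was measured in 6 libraries, 3 per genotype. Groups and replicate numbers are those of the sample titles, and no label says that samples came from separate mice, so the spread behind the p-values may be technical. The authors deposited 1 FPKM value per gene and library. The submitters' processing notes name FastQC, HISAT2, StringTie and mm10 without versions, and the annotation and the use of strand are not given in the sources used here. In each gene of the table the higher group mean was at least 0.50043 FPKM. Each library's own file held the same values as the table.

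Genes averaging 0.5 FPKM or more were put on the scale log2(FPKM + 1), which understates changes of low genes. Genotypes were compared in limma 3.58.1 (R 4.3.3) with empirical Bayes and a trended prior variance. P-values are two-sided and adjusted by Benjamini-Hochberg over 12836 genes, threshold 0.05. An exact permutation test of 3 against 3 cannot go below 0.1. The fit was tested on simulated data.

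Members, roles and lists were chosen with earlier results of these data known. Named genes were up to 3 members per role, and up to 2 genes per list, with a mean of at least 1 FPKM and the smallest p, plus Ccnd1, Cdkn1a, Ccng1, Cdk1, Mki67, Top2a, Pcna, Mcm2 and E2f1. Other members named with values, overlapping genes and library sums were chosen after the values were seen. Positions and 31-base words are from GENCODE M21. Alternatives were another pseudocount, 2 filters, 3 scalings, 3 variance models, a replicate block and each library left out. Tnfsf14 was not analysed here.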

Additional observations from a re-analysis of the deposited data

How the results depend on the processing

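The count of cell cycle genes past the threshold was 0 under all 16 alternatives. At an unadjusted p under 0.05 it was 2 of 66, beside 1037 of all 12836 genes tested. Under the alternatives it was 0 to 8, the 8 with sample weights, where 2577 of all 12836 genes were under 0.05. The median over the members tested was -0.09 and lay between -0.13 and -0.0028 when each library was left out. Genes past the threshold in the whole table numbered 15, against 52 with sample weights, 0 with the replicate block and 0 to 11 with each library left out. Same-numbered libraries had correlations of their deviations from the group means of 0.146, -0.133 and -0.0193, so the numbers were not taken as pairs, and the block changed no call of a member. With sample weights, which give less weight to libraries far from their group, the median of D-type cyclins and kinases was 0.0697 and that of transcriptional genes 0.0543, and log2 fold changes turned sign in Cdk4 (0.0697), Cdkn2d (0.0029), Cdk16 (0.0299), Cdkn2aipnl (0.0112) and Mki67 (-0.36). With a pseudocount of 0.1 FPKM Mki67 was at -0.013. The median of the mitotic genes was then -0.25, against -0.14 in the main fit, and that of the cyclin E and A group -0.39, against -0.27. With each library left out, the median of inhibitors ranged from -0.20 to 0.21 and that of transcriptional genes from -0.0511 to 0.0484. Named genes that changed sign in such fits, none of them called, were Ccnd1 (-0.11 to 0.41), Ccnd3 (-0.83 to 0.0314), Ccne1 (-0.47 to 0.0486), Cdk1 (-0.31 to 0.0724), Cdk6 (-0.38 to 0.0075), Cdkn2d (-0.27 to 0.0944), E2f1 (-0.34 to 0.10), Mki67 (-0.27 to 0.32) and Top2a (-0.31 to 0.18). The cause of these turns was not tested beyond the library left out. Depth is unknown, so the counting error of mitotic genes near 1 FPKM could not be given.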

Other observations

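The ratio of Ccnd1 to Cdkn1a, the cyclin of cycle entry to the inhibitor p21, was formed after the values were seen and is given without a test. It was 1.30, 1.68 and 1.53 in the wild type libraries and 2.08, 2.89 and 4.54 in the knockout libraries, while each gene alone overlapped between the groups. The pair was picked from many, and single genes did not overlap in 16.6% of the table, so nothing is read from the separation of the ratio. In knockout library 2 the numerator was the highest of all libraries, and in knockout library 3 the denominator was the lowest.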
